A study of Sus scrofa with 8 samples.

Results

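Pig embryos carrying a knockout of MYF5, MYOD1 (labelled MYOD) and MYF6 were compared with wild-type (WT) embryos on embryonic day 62 (E62) by bulk RNA sequencing of tissue labelled limb muscle. The members, picked by title, are the 2 knockout (KO) and 2 wild-type libraries at E62, which are 4 of the 8 libraries of the series; the other 4 hold the same genotypes on day 41 (E41). All titles call the replicates biological, and no treatment or other allele is named. The samples are labelled knockout although the title of the series speaks of a knockdown, and the harvest note names day 60 in place of day 62. The sources used here do not say how the knockout was made, whether embryos were clones or whether tissue was pooled. All 4 library names at E62 carry the code RHL, the knockout pair shares a 4-digit number and the wild-type pair carries another, so a litter or batch that these numbers may mark cannot be told apart from genotype.

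MYF5, MYOD1, MYF6 and MYOG are the myogenic regulatory factors, transcription factors that commit mesodermal cells to the skeletal muscle lineage and switch on genes of the contractile apparatus. MYF5, MYF6 and MYOD1 act in progenitors and myoblasts, and MYOG acts downstream of them as myoblasts differentiate and fuse into fibers. Muscle of a fetal limb also holds connective tissue, vessels, nerves, blood and resident immune cells, and a dissected piece can carry skin, which forms its own layered epithelium with keratins and desmosomes.

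At E62 the knockout libraries held almost none of the transcripts of skeletal muscle fibers. Of the 6 muscle markers set for the tissue label, ACTA1, MYH3, MYH8, TNNT3, CKM and DES, DES kept the highest level in the knockout at 5.05 and 7.74 CPM (counts scaled to a common library total by TMM normalisation), against 3684 and 4465 CPM in wild type. ACTA1, skeletal muscle actin, stood at 0.103 and 0.0334 CPM in the knockout. The label limb muscle was therefore borne by knockout libraries in which defining muscle markers were near 0. Transcripts of macrophages, fibroblasts, Wnt targets and complement genes took a larger share of the knockout libraries. In bulk tissue, fewer cells of a type and less RNA per cell cannot be told apart, and CPM values are shares of a library.

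Total counts were 35867841 and 37676855 in wild type and 60539245 and 52630708 in the knockout. Of 17020 genes tested with edgeR's quasi-likelihood test, 8028 (47.2%) passed a Benjamini-Hochberg adjusted p under 0.05. Of all genes tested, 21.0% (3573) were higher and 26.2% (4455) lower in the knockout, and 9398 had an unadjusted p under 0.05. Scaling decided this split, since with library size alone 6156 genes were higher and 2717 lower, or 69.4% of the calls higher against 44.5% with TMM, and the median log2 change of all genes moved from 0.06 to 0.36. The number higher fell to 2250 without wild-type replicate 1, and to between 2700 and 2971 without any other of the 4 libraries. At least 2-fold changes passing the threshold numbered 2043 higher and 1867 lower, and 3692 genes passed a test against a 1.5-fold change. With 2 libraries a side, the p-values rest on the spread between these few embryos and on a spread shared over the 8 libraries.

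Skin content separated the knockout replicates. The 3 lists of epidermal genes (keratins, cell junctions and differentiation) had 68 genes tested, and their levels summed to 606 and 766 CPM in wild type and to 2727 CPM in knockout replicate 1 and 618 CPM in replicate 2. Knockout replicate 1 was thus the only library of the 4 with a high sum, 4.41 times that of replicate 2 (95% interval 4.36 to 4.46, exact Clopper-Pearson, counting error only). The sum of replicate 2 lay between those of the wild-type libraries. That sum leans on abundant members such as ITGA6 and DST, which hardly differed between the knockout replicates. Gene by gene, replicate 2 was above both wild-type libraries for 39 of the 68 genes and below both for 19. Of the 68 genes, 64 were higher in replicate 1 than in replicate 2, and in the wild-type pair 34 were higher in replicate 2. These are values of 1 library against 1, with no test.

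Keratins carried the widest gap. The 12 tested keratins summed to 24.8 and 26.8 CPM in wild type and 1076 and 20.2 CPM in the knockout. KRT1, a keratin of the differentiating epidermal layers, was at 0.0301 and 0.501 CPM in wild type, 404 CPM in knockout replicate 1 and 3.77 CPM in replicate 2. KRT10, its partner, was at 6.17 and 6.04 CPM in wild type and 129 and 6.71 CPM in the knockout. The basal and follicle keratins KRT15 and KRT17 stood at 258 and 3.34 CPM and 138 and 0.784 CPM in the knockout replicates, and at no more than 0.602 CPM in wild type. For each of these 4 keratins the highest value came from knockout replicate 1. Replicate 2 was also above both wild-type libraries for all 4, by a small margin for KRT10 and KRT17. KRT5 and KRT14 were not matched by symbol.

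Genes of desmosomes and hemidesmosomes, which bind keratinocytes to each other and to the basement membrane, followed the same order. All 31 tested genes of the junction list were higher in knockout replicate 1 than in replicate 2. Their sum was 2.51 times as high there, against 53.4 times for keratins. The abundant DST, ITGA6 and JUP were only 1.01-fold, 1.02-fold and 1.08-fold higher. COL17A1, a hemidesmosome collagen, was 114-fold and PKP1, a desmosome plaque protein, 68.8-fold higher in knockout replicate 1 than in replicate 2. DSP, desmoplakin, was at 1.26 and 1.35 CPM in wild type and 212 and 34.6 CPM in the knockout. TP63, the master factor of stratified epithelium, was at 8.75 and 9.04 CPM in wild type and 39.6 and 0.534 CPM in the knockout. Replicate 1 thus lay above and replicate 2 below both wild-type libraries. In wild type TP63 stood well above KRT1, KRT15 and KRT17, so its level there did not follow these keratins. Of the melanocyte genes, PMEL and TYR were also higher in knockout replicate 1, at 18.9 and 0.567 CPM and 2.45 and 0.0334 CPM in the replicates. Both genes were at or under 0.120 CPM in wild type. The whole melanocyte list was closer, with sums of 96.2 and 83 CPM in wild type and 117 and 92.2 CPM in the knockout. Against wild type, 2 of its 11 genes were higher and 1 lower (18.2% and 9.09%, beside 21.0% and 26.2% of all genes tested). PMEL and TYR were not called (edgeR adjusted p = 0.095 and 0.12). DCT, at 20.1 and 6.79 CPM in the knockout, was higher (log2 change 2.23, edgeR adjusted p = 0.016), a call lost with limma-voom. OCA2 was lower (log2 change -4.08, edgeR adjusted p = 2.7e-04).

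**Figure D1:**
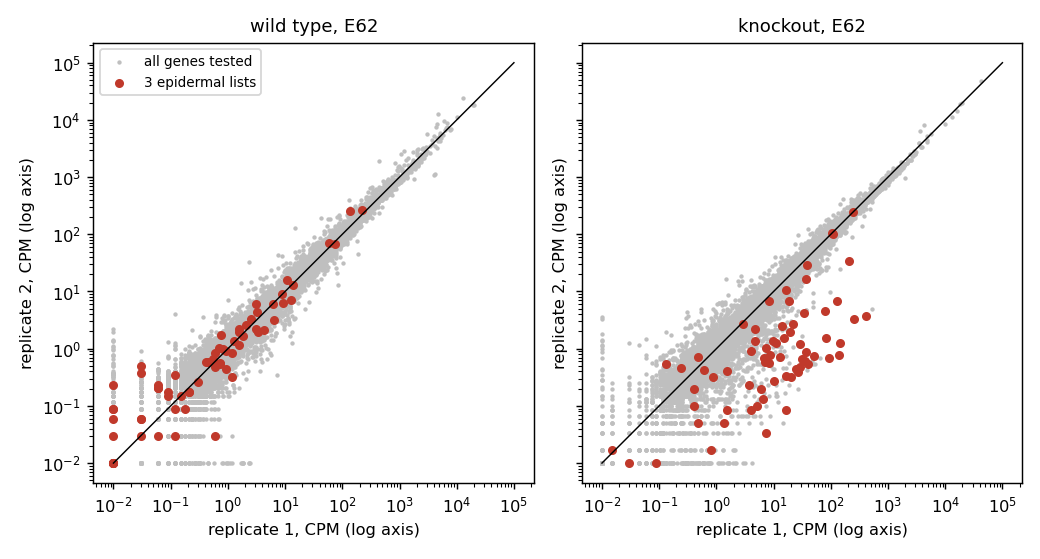
Each point is a gene, with its TMM-scaled CPM in replicate 1 on the x axis and in replicate 2 on the y axis (both log axes, 0 drawn at 0.01), for wild type on the left and knockout on the right; red points are the 3 epidermal lists and the line marks equal values. In the knockout panel 64 of the 68 epidermal genes lie under the line, whereas in wild type they lie on both sides of it.

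The difference reached beyond the lists. Of 11406 genes at a mean of 5 CPM or more over the knockout pair, 97 (0.850%) were at least 4-fold higher in replicate 1 and 6 (0.0526%) at least 4-fold higher in replicate 2. The wild-type pair, with 11251 such genes, had 6 (0.0533%) and 10 (0.0889%). Of the 97 genes, 87 had a symbol, and 33 of these belonged to the epidermal or hair follicle lists. Those outside the lists included TRIM29, SERPINB5 and BNC1, genes of epithelial cells, at 48.3 and 0.534 CPM, 37.8 and 0.417 CPM and 26.9 and 0.20 CPM in the knockout replicates. UPK3B, a gene of mesothelial and urothelial cells, was at 14.4 and 0.0501 CPM.

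The epidermal calls against wild type depended on which knockout library was kept. Both knockout libraries together gave 16 of 68 epidermal genes higher and 2 lower. By list, 16.7% of keratin, 25.8% of junction and 24% of differentiation genes were higher, near the 21.0% of all genes tested. The shares lower, 0%, 6.45% and 0%, were under the 26.2% of all genes tested. Of the same 68 genes, 10 were higher and 10 lower without replicate 1, and 49 were higher and 3 lower without replicate 2. TP63 had a log2 change of 1.18, SE 1.60 with both (edgeR adjusted p = 0.58), -4.06 without replicate 1 (adjusted p = 0.0074) and 2.15 without replicate 2 (adjusted p = 0.015). KRT8 likewise changed sign, from 5.23 to -0.85 without replicate 1, though neither value passed the threshold (adjusted p = 0.12 and 0.45). Other settings also moved the counts of genes higher, to between 1 and 9 for keratins, 2 and 20 for junction genes and 1 and 13 for differentiation genes, against 2, 8 and 6; DESeq2 gave the highest of each.

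Some skin genes were high in both knockout libraries at similar levels. ITGB4, the hemidesmosome integrin, was at 1.59 and 2.24 CPM in wild type and 38 and 28.5 CPM in the knockout (log2 change 4.11, SE 0.54, edgeR adjusted p = 0.0019). KRT23 was at 0.0301 and 0.0294 CPM in wild type and 2.94 and 2.7 CPM in the knockout, and 95-fold higher (95% interval 26.1 to 787) over wild type (edgeR adjusted p = 1.8e-04). DLX3, a factor of hair follicle and placode, was at 0.0602 and 0.147 CPM in wild type and 3.44 and 3.17 CPM in the knockout (log2 change 4.95, SE 0.60, edgeR adjusted p = 4.6e-04). These 3 held their call without either knockout library, and their knockout values did not overlap wild type. ITGA6, another basal integrin, fell from 225 and 265 CPM to 106 and 105 CPM (adjusted p = 0.0019). In the hair follicle list 7 of 15 genes were higher and 1 lower. The low-count filter was applied anew in each fit that left out a library, and 15 of 17 tested genes were higher without knockout replicate 2, 2 of 17 without wild-type replicate 1 and 2 of 17 without wild-type replicate 2.

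The libraries on day 41 give a scale for these sums. The same 68 genes summed to 2526 and 4619 CPM in wild type and 4437 and 2832 CPM in the knockout at E41. Knockout replicate 1 at E62 was thus near the lowest of the E41 libraries, and the other 3 E62 libraries were below all of them. How much of any change at E62 goes with skin content was not tested. For some of the groups below, changes that do or do not hold without replicate 1 are given.

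**Figure D2:**
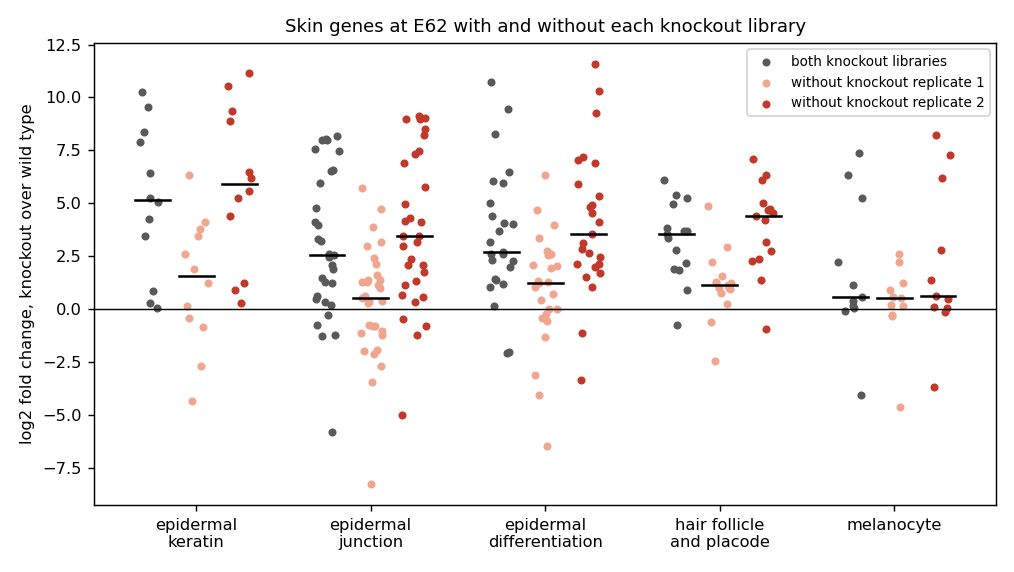
Each point is the log2 fold change of 1 skin gene, knockout over wild type at E62, with both knockout libraries (grey), without knockout replicate 1 (light) and without knockout replicate 2 (red), and black bars are medians. The medians of the epidermal and hair follicle lists drop without replicate 1 and rise without replicate 2, and points below 0 are more frequent without replicate 1.

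The targeted genes matched the labels in every library. MYF5 was at 96.6 and 62.2 CPM in wild type and 0 and 0 CPM in the knockout, which is at least 3374-fold lower. MYF6 was at 103 and 108 CPM in wild type and 0 and 0 CPM in the knockout, at least 4504-fold lower. Neither gene had a count in the knockout at E62. MYOD1 kept a trace of signal at 172 and 153 CPM in wild type and 1.14 and 1.47 CPM in the knockout (log2 change -6.96, SE 0.22, edgeR adjusted p = 5.2e-07). MYOG, which was not targeted, was at 637 and 579 CPM in wild type and 0.0148 and 0 CPM in the knockout, 77574-fold lower (95% interval 13922 to 3064070.0).

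Across the 9 muscle lists, 133 genes were tested, of which 120 fell, 3 rose and 10 did not pass the threshold, with a median log2 change of -7.03 against 0.06 for all genes. In 126 of the 133 genes both knockout libraries lay below both wild-type libraries, and 5 had no count in either knockout library. Leaving out either knockout library moved the number lower by at most 1 gene in each list. The replicates were alike in the sarcomere lists, and thick filament genes summed to 36974 and 42539 CPM in wild type and 30.1 and 35.4 CPM in the knockout.

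Thick filament genes encode the myosins and their binding proteins. All 18 tested fell. MYH3, embryonic myosin, was at 6673 and 8740.0 CPM in wild type and 1.99 and 1.84 CPM in the knockout (log2 change -11.97, SE 0.29, edgeR adjusted p = 9.9e-08), and MYH8, perinatal myosin, at 6453 and 7091 CPM in wild type and 0.457 and 0.10 CPM in the knockout (log2 change -14.51, SE 0.58, edgeR adjusted p = 3.7e-06). MYL2, a regulatory light chain, was at 2377 and 2526 CPM in wild type and 0.103 and 0.184 CPM in the knockout (log2 change -14.05, SE 0.25, edgeR adjusted p = 3.9e-08). No knockout value of these genes came near a wild-type value. MYL1 and MYL11, the fast light chains, were at 0.398 and 0.40 CPM and 0.398 and 0.317 CPM in the knockout. The smallest falls of the list were those of MYBPC2 and MYH7B, at log2 changes of -2.04, SE 0.40 and -3.35, SE 0.17.

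Thin filament genes, the actins, tropomyosins and troponins, also fell in all 14 tested. ACTC1, cardiac actin and the form of early muscle, was at 10133 and 11261 CPM in wild type and 0.384 and 0.20 CPM in the knockout (log2 change -15.13, SE 0.38, edgeR adjusted p = 1.1e-07). TNNC2, fast troponin C, was at 2527 and 3170.2 CPM in wild type and 1.98 and 2.35 CPM in the knockout (log2 change -10.36, SE 0.29, edgeR adjusted p = 2.0e-07). The tropomyosins, which other cells also use, kept a measurable level. TPM2 was at 6197 and 6692 CPM in wild type and 55.6 and 45.7 CPM in the knockout (log2 change -6.99, SE 0.18, edgeR adjusted p = 1.1e-07) and TPM1 at 1709 and 2756 CPM in wild type and 251 and 204 CPM in the knockout (log2 change -3.29, SE 0.26, edgeR adjusted p = 6.1e-05). No wild-type value overlapped a knockout value for any of these genes.

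Titin-associated and Z-disc genes anchor the thin filaments, and all 18 tested fell. MYPN and CSRP3 had no count in the knockout; they stood at 153 and 171 CPM and 338 and 599 CPM in wild type and were at least 6912-fold lower and at least 20008-fold lower. ACTN2, sarcomeric alpha-actinin, was at 2539 and 3109.8 CPM in wild type and 2.27 and 2.2 CPM in the knockout (log2 change -10.30, SE 0.21, edgeR adjusted p = 5.1e-08). FLNC, filamin C, was the least reduced at 1044 and 1427 CPM in wild type and 196 and 218 CPM in the knockout (log2 change -2.58, SE 0.18, edgeR adjusted p = 2.5e-05), followed by PDLIM3 (-3.24, SE 0.39).

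Genes of differentiation and fusion fell in 13 of 14, with a median of -7.87. VGLL2, a cofactor of muscle TEAD factors, was at 241 and 275 CPM in wild type and had no count in the knockout, at least 10990.4-fold lower. KLHL41, needed for myofibril maintenance, was at 2479 and 3093 CPM in wild type and 0.177 and 0.117 CPM in the knockout (log2 change -14.17, SE 0.32, edgeR adjusted p = 7.6e-08). CDH15, the M-cadherin of muscle cells, was at 365 and 334 CPM in wild type and 0.339 and 0.467 CPM in the knockout (log2 change -9.76, SE 0.18, edgeR adjusted p = 3.9e-08). MEF2C, a transcription factor that vascular and neural cells share with muscle, kept 76.9 and 79.8 CPM against 967 and 976 CPM (log2 change -3.63, SE 0.14, edgeR adjusted p = 1.2e-06).

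Excitation-contraction coupling links the membrane signal to calcium release, and 17 of its 18 genes fell. RYR1, the calcium release channel, was at 553 and 783 CPM in wild type and 1.36 and 1.4 CPM in the knockout (log2 change -8.92, SE 0.24, edgeR adjusted p = 1.6e-07). SLN, sarcolipin, was at 590.3 and 624 CPM in wild type and 0.162 and 0.117 CPM in the knockout (log2 change -12.04, SE 0.20, edgeR adjusted p = 3.9e-08). ATP2A1, the fast muscle calcium pump, was at 255 and 306 CPM in wild type and 0.207 and 0.117 CPM in the knockout (log2 change -10.72, SE 0.26, edgeR adjusted p = 1.1e-07). The pump that most cells use, ATP2A2, kept 107 and 95.4 CPM against 861 and 886 CPM (log2 change -3.11, SE 0.11, edgeR adjusted p = 7.3e-07).

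At the neuromuscular junction, 9 of 12 genes fell and 1 rose. MUSK, the postsynaptic kinase, was at 71.2 and 81.6 CPM in wild type and 0.118 and 0.117 CPM in the knockout (log2 change -9.31, SE 0.18, edgeR adjusted p = 4.0e-08). CHRNA1 and CHRND, subunits of the acetylcholine receptor, were at 1.0 and 1.89 CPM and 0.103 and 0.0834 CPM in the knockout, against 416 and 362 CPM and 39.5 and 35.4 CPM. AGRN, the basement membrane organiser that many cells secrete, rose from 60.3 and 87.6 CPM to 204 and 175 CPM (log2 change 1.36, SE 0.19, edgeR adjusted p = 9.8e-04).

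Energy genes of muscle fell in 16 of 19. CKM, muscle creatine kinase, was at 3016 and 2807 CPM in wild type and 1.43 and 1.37 CPM in the knockout (log2 change -11.02, SE 0.22, edgeR adjusted p = 4.6e-08). ENO3, muscle enolase, was at 597 and 749.8 CPM in wild type and 5.53 and 5.37 CPM in the knockout (log2 change -6.95, SE 0.25, edgeR adjusted p = 1.2e-06). Both stood far outside the wild-type range, whereas ALDOA, a glycolytic enzyme of many tissues, fell less, from 1495 and 1583 CPM to 243 and 199 CPM (log2 change -2.80, SE 0.15, edgeR adjusted p = 6.6e-06). PDK4, which restrains pyruvate oxidation, was the only gene of the list to rise, from 9.02 and 11.5 CPM to 23.2 and 32.5 CPM (log2 change 1.44, SE 0.23, edgeR adjusted p = 0.0016).

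**Figure D3:**
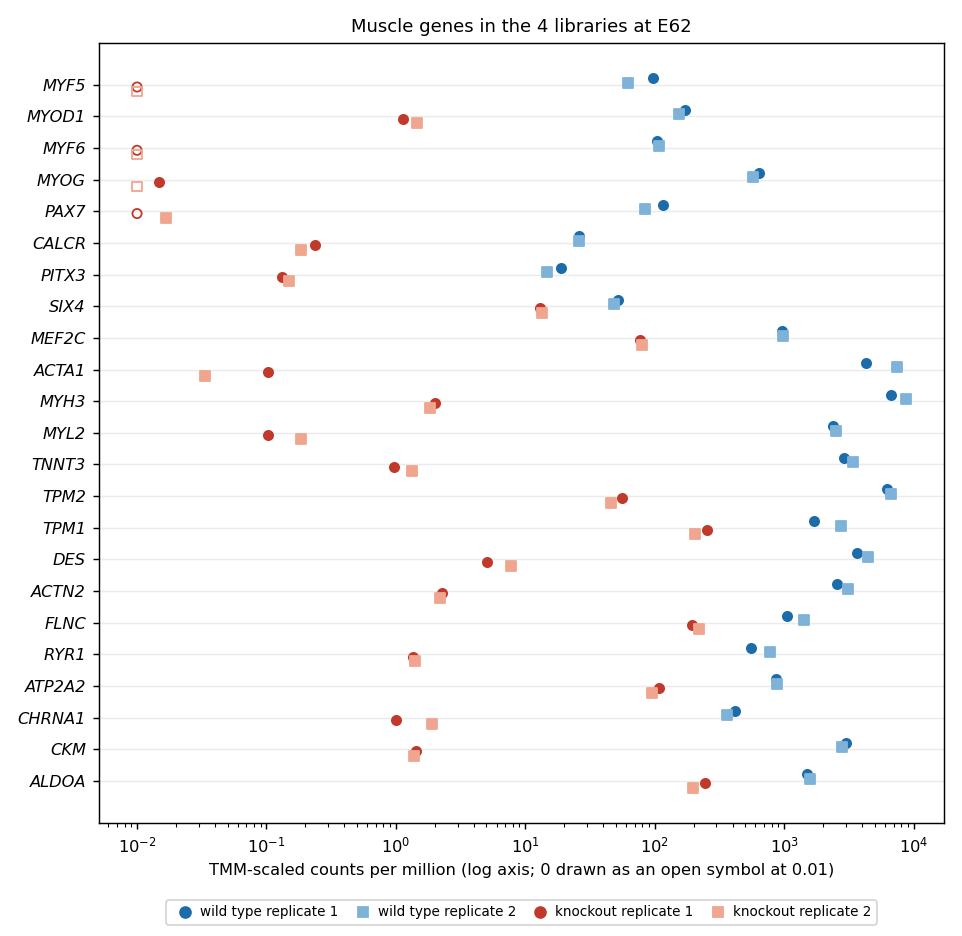
TMM-scaled CPM of 23 muscle genes on a log x axis in each of the 4 libraries (blue wild type, red knockout; circles replicate 1, squares replicate 2; open symbols at 0.01 are libraries with no count). Every knockout value lies left of every wild-type value, with the narrowest gaps in SIX4, TPM1, FLNC and ALDOA.

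Muscle progenitor genes fell in 11 of 16, with 1 higher. PAX7, the factor of muscle stem cells, was at 116 and 84.5 CPM in wild type and 0 and 0.0167 CPM in the knockout, 12808-fold lower (95% interval 2298 to 505950.0). CALCR, a receptor of quiescent stem cells, was at 25.9 and 25.9 CPM in wild type and 0.236 and 0.184 CPM in the knockout (log2 change -6.92, SE 0.34, edgeR adjusted p = 4.3e-06). LBX1, the factor of migrating limb progenitors, was at 18.9 and 13.5 CPM in wild type and 0.118 and 0.0334 CPM in the knockout (log2 change -7.65, SE 0.47, edgeR adjusted p = 1.3e-05). These 3 were close to 0 in the knockout, whereas a factor that acts upstream in progenitors kept more: SIX4 was at 51.9 and 48.6 CPM in wild type and 12.9 and 13.4 CPM in the knockout (log2 change -1.93, SE 0.20, edgeR adjusted p = 2.1e-04). VCAM1, an adhesion protein also found on vessels, was higher with all libraries (adjusted p = 0.04), and lost that call without either wild-type library and without knockout replicate 2 (adjusted p between 0.14 and 0.19).

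Among other tissues of the limb, fibroblast genes took up a larger share of the knockout. Of 24 tested, 18 rose and 1 fell, with a median of 1.26, and sums of 32335 and 56539 CPM in wild type and 106801 and 111118 CPM in the knockout. PDGFRA, the receptor that marks connective tissue progenitors, was at 211 and 215 CPM in wild type and 516 and 595 CPM in the knockout (log2 change 1.38, SE 0.10, edgeR adjusted p = 3.9e-05). OSR2, a factor of limb connective tissue, was at 18.6 and 18.2 CPM in wild type and 72.5 and 81 CPM in the knockout (log2 change 2.06, SE 0.11, edgeR adjusted p = 7.1e-06). COL1A1, the main collagen, was at 4601 and 8423 CPM in wild type and 18384 and 19017 CPM in the knockout (log2 change 1.52, SE 0.36, edgeR adjusted p = 0.011). Wild-type replicate 1 was the lowest of the 4 libraries in summed fibroblast level, and without it the list had 11 genes higher and COL1A1 had an adjusted p of 0.054. DPP4, a surface enzyme of a subset of fibroblasts, fell from 51.8 and 65.4 CPM to 10.9 and 16.1 CPM (log2 change -2.12, SE 0.22, edgeR adjusted p = 2.4e-04).

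Fat genes divided, 7 higher and 7 lower of 22 (31.8% each way, beside 21.0% and 26.2% of all genes tested). Their median was -0.15 with TMM and 0.15 with library size alone. PPARG and CEBPA, factors that drive fat cell formation, rose. PPARG was at 2.95 and 4.86 CPM in wild type and 32.4 and 48.2 CPM in the knockout (log2 change 3.37, SE 0.32, edgeR adjusted p = 1.8e-04), and CEBPA at 5.68 and 8.22 CPM in wild type and 34 and 30.1 CPM in the knockout (log2 change 2.20, SE 0.27, edgeR adjusted p = 6.3e-04). PLIN1, a coat protein of lipid droplets, was at 0.12 and 0.118 CPM in wild type and 2.04 and 5.72 CPM in the knockout (log2 change 4.99, SE 0.73, edgeR adjusted p = 0.001). Of the genes that fell, GPD1 at 43 and 29.7 CPM in wild type and 3.28 and 3.59 CPM in the knockout (log2 change -3.40, SE 0.20, edgeR adjusted p = 1.1e-05) and AGPAT2 at 34.3 and 25.6 CPM in wild type and 3.41 and 3.04 CPM in the knockout (log2 change -3.22, SE 0.32, edgeR adjusted p = 2.3e-04), encode enzymes of glycerolipid synthesis that other tissues also use. FABP4, ADIPOQ and PLIN1 were higher in knockout replicate 2 than in replicate 1, with ADIPOQ at 5.71 and 17.9 CPM.

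Tendon genes changed in both directions, 3 higher and 3 lower of 14 (21.4% each way, near the 21.0% and 26.2% of all genes tested). EGR1, given below with the immediate early genes, had the largest rise of the list (log2 change 2.58, edgeR adjusted p = 0.0086). The largest fall was that of CHODL, from 152 and 96.1 CPM to 6.2 and 3.14 CPM (log2 change -4.73, SE 0.51, edgeR adjusted p = 9.9e-04). SCX, the tendon lineage factor, was low throughout at 2.26 and 1.8 CPM in wild type and 0.62 and 0.234 CPM in the knockout (log2 change -2.23, SE 0.58, edgeR adjusted p = 0.015), and missed the threshold without wild-type replicate 1 or knockout replicate 2 (adjusted p = 0.07 and 0.057). TNMD, tenomodulin, was at 44.6 and 37.7 CPM in wild type and 86.2 and 46.7 CPM in the knockout, and did not pass the test (adjusted p = 0.47). Without wild-type replicate 1 only 1 tendon gene was higher and 1 lower, and without knockout replicate 2 only 1 was lower; DESeq2 and a fit of the E62 libraries alone each gave 5 lower.

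Few cartilage genes were called, 1 higher and 1 lower of 14 (7.14% each way, under the 21.0% and 26.2% of all genes tested). Their median was 1.17, and 0.37 without knockout replicate 1. SOX5 was the gene called higher (log2 change 1.06, edgeR adjusted p = 0.014), a call lost beyond 1.5-fold. SOX6, which muscle also uses, fell from 59.4 and 85.3 CPM to 8.51 and 4.39 CPM (log2 change -3.48, SE 0.37, edgeR adjusted p = 6.0e-04). The defining markers COL2A1 and SOX9 were at 44 and 40.3 CPM in wild type and 71.3 and 23.6 CPM in the knockout and at 16.1 and 8.83 CPM in wild type and 11.7 and 11.7 CPM in the knockout, with adjusted p of 0.92 and 0.92. Knockout replicate 1 was the higher of its pair for COL2A1. The marker ACAN, at 3.41 and 0.818 CPM in the knockout, did not pass either (log2 change 1.73, edgeR adjusted p = 0.59).

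Bone genes rose in 7 of 14 and fell in 3, with a median of 1.79. The shares, 50% and 21.4%, stood beside 21.0% and 26.2% of all genes tested. Of those that fell, BGLAP was at 0.782 and 0.951 CPM in the knockout (log2 change -2.19, edgeR adjusted p = 0.004). RUNX2, the factor of the bone lineage, was at 0.211 and 0.471 CPM in wild type and 11.8 and 11 CPM in the knockout (log2 change 5.04, SE 0.60, edgeR adjusted p = 6.4e-04). ACP5, the acid phosphatase of osteoclasts and macrophages, was at 1.65 and 1.56 CPM in wild type and 56.2 and 28.1 CPM in the knockout (log2 change 4.71, SE 0.36, edgeR adjusted p = 7.3e-05). SPP1, osteopontin, which macrophages also make, was at 222 and 260.4 CPM in wild type and 1952 and 957 CPM in the knockout (log2 change 2.59, SE 0.43, edgeR adjusted p = 0.004). ACP5 and SPP1 were higher in the skin-rich replicate, and their calls held without it (adjusted p = 1.0e-05 and 0.0066). SP7 and IBSP, which mark osteoblasts, stayed at or under 1.05 CPM in all 4 libraries. The number higher was 3 to 6 when a library was left out, the lowest without wild-type replicate 2 (3) and then without wild-type replicate 1 or knockout replicate 1 (4 each), and 3 for changes beyond 1.5-fold.

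Endothelial genes were higher in 7 of 17 and lower in 1, with a median of 0.42. The shares, 41.2% and 5.88%, stood beside 21.0% and 26.2% of all genes tested. ERG, an endothelial factor, was at 16 and 12.7 CPM in wild type and 37.7 and 53.5 CPM in the knockout (log2 change 1.67, SE 0.18, edgeR adjusted p = 3.0e-04), and LYVE1, a receptor of lymphatic vessels and some macrophages, at 46 and 52.6 CPM in wild type and 163 and 169 CPM in the knockout (log2 change 1.75, SE 0.26, edgeR adjusted p = 0.0017). Both calls held whichever library was left out. The knockout replicates differed here too, with sums of 1276 and 1258 CPM in wild type and 1431 and 2204 CPM in the knockout, and replicate 2 the higher. The number higher was 11 without knockout replicate 1, 4 without knockout replicate 2, 3 without wild-type replicate 1, 4 without wild-type replicate 2, 11 with library size alone and 3 for changes beyond 1.5-fold. CDH5, the endothelial cadherin, was at 186 and 194 CPM in wild type and 192 and 305 CPM in the knockout, with an adjusted p of 0.18, and of 0.012 without replicate 1.

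Smooth muscle and pericyte genes fell in 9 of 16 and rose in 3, but several are shared with skeletal muscle, DES among them. The share higher, 18.8%, was near the 21.0% of all genes tested, and the share lower was 56.2%, beside 26.2%. ACTA2, smooth muscle actin, which fetal skeletal muscle also expresses, fell from 1025 and 894 CPM to 129 and 116 CPM (log2 change -2.97, SE 0.13, edgeR adjusted p = 2.3e-06). MYH11, the myosin of smooth muscle, rose from 9.17 and 15 CPM to 24 and 32.8 CPM (log2 change 1.23, SE 0.24, edgeR adjusted p = 0.0046). MYLK, the light chain kinase, rose from 24.6 and 29.7 CPM to 78.5 and 84.1 CPM (log2 change 1.58, SE 0.25, edgeR adjusted p = 0.0024). For these 3 genes no library of one genotype overlapped the other.

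Macrophage and immune genes rose in 18 of 19, the highest share of rises of any list, with a median of 1.98 and sums of 233 and 264 CPM in wild type and 1072 and 1008 CPM in the knockout. C1QA, C1QB and C1QC, the complement subunits that tissue macrophages make, were at 91.9 and 86.4, 147 and 142 and 75.4 and 85.4 CPM in the knockout replicates, against 22.5 and 24.5, 28.7 and 28.3 and 14.3 and 14.5 CPM. CD68, a lysosomal protein of macrophages, was at 7.82 and 8.48 CPM in wild type and 77.4 and 46.3 CPM in the knockout (log2 change 2.92, SE 0.32, edgeR adjusted p = 5.2e-04), and CSF1R, the receptor for macrophage growth factor, at 37.7 and 42.5 CPM in wild type and 98.4 and 114 CPM in the knockout (log2 change 1.41, SE 0.25, edgeR adjusted p = 0.0042). Both knockout libraries were about equally high, and the calls of C1QA, C1QB, C1QC, CD68 and CSF1R held under every alternative run. The number of genes higher was 11 without wild-type replicate 2 and 12 to 16 without any other library.

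Complement and interferon genes rose in 12 of 20, with a median of 1.35. C4A was at 9.62 and 16.5 CPM in wild type and 88.9 and 186 CPM in the knockout (log2 change 3.39, SE 0.44, edgeR adjusted p = 0.0017), and CFD, complement factor D, which fat cells also secrete, at 5.59 and 6.6 CPM in wild type and 24.6 and 31.2 CPM in the knockout (log2 change 2.19, SE 0.20, edgeR adjusted p = 1.1e-04). IFIT1 and OAS2, interferon-induced genes, were at 1.74 and 1.86 CPM in wild type and 10.4 and 18.9 CPM in the knockout (log2 change 3.03, SE 0.39, edgeR adjusted p = 5.5e-04) and at 9.44 and 10.3 CPM in wild type and 24.7 and 24.7 CPM in the knockout (log2 change 1.32, SE 0.22, edgeR adjusted p = 0.0018). C4A and IFIT1 are members of families of close copies among which estimated counts divide reads, so their levels are uncertain. Without wild-type replicate 1, and for changes beyond 1.5-fold, 7 genes were higher.

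Neuron genes were higher in 5 of 10 and lower in 0 (50% and 0%, beside 21.0% and 26.2% of all genes tested). STMN2, a tubulin regulator of axons, was at 2.77 and 2.41 CPM in wild type and 53.9 and 37.5 CPM in the knockout (log2 change 4.14, SE 0.46, edgeR adjusted p = 9.0e-04). ELAVL4 was at 0.271 and 0.236 CPM in wild type and 2.8 and 1.42 CPM in the knockout (log2 change 3.05, SE 0.45, edgeR adjusted p = 0.0012). Of the Schwann cell genes 4 were higher and 3 lower of 14 (28.6% and 21.4%, beside 21.0% and 26.2% of all genes tested). Their median, -0.06 with TMM, was 0.25 with library size alone. ERBB3, the neuregulin receptor, which muscle also expresses, fell from 464 and 462 CPM to 22.5 and 14.5 CPM (log2 change -4.64, SE 0.27, edgeR adjusted p = 2.1e-05). FOXD3 fell from 8.39 and 6.45 CPM to 0.561 and 0.417 CPM (log2 change -3.91, SE 0.37, edgeR adjusted p = 1.3e-04). The defining marker SOX10 was at 8.0 and 8.72 CPM in wild type and 5.09 and 5.22 CPM in the knockout, not past the threshold (adjusted p = 0.11), and passed it in a fit of the E62 libraries alone. Only 2 Schwann genes were higher without knockout replicate 2 or either wild-type library.

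Red blood cell genes followed single libraries, and the shares called, 8.33% each way, were under the 21.0% and 26.2% of all genes tested. HBB, beta globin, was at 4109 and 1138 CPM in wild type and 4335 and 8014 CPM in the knockout (adjusted p = 0.2), with wild-type replicate 2 the lowest and knockout replicate 2 the highest. In this list 1 gene was higher and 1 lower of 12, and 5 were higher without knockout replicate 1. SPTB, a spectrin of red cells and of muscle, fell from 422 and 466 CPM to 2.48 and 7.16 CPM (log2 change -6.53, SE 0.53, edgeR adjusted p = 3.3e-04).

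**Figure D4:**
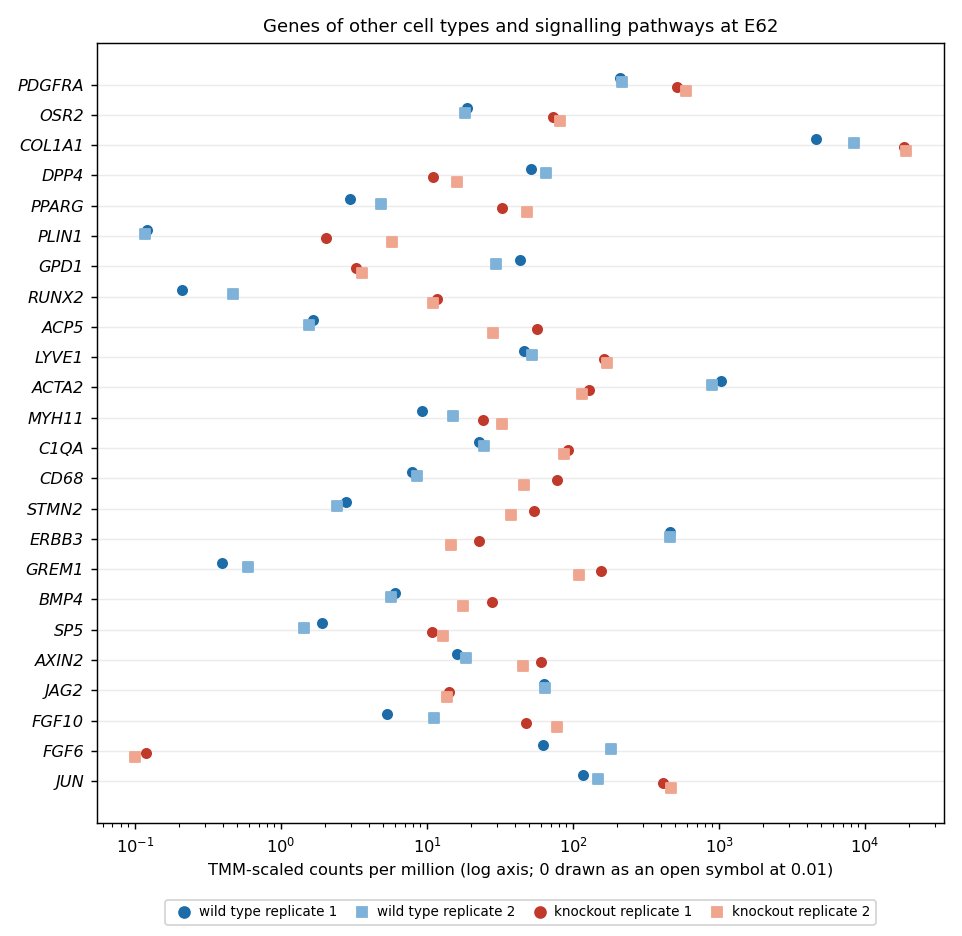
TMM-scaled CPM of 24 genes of other cell types and signalling pathways on a log x axis in each of the 4 libraries (blue wild type, red knockout; circles replicate 1, squares replicate 2; open symbols at 0.01 are libraries with no count). Red points lie right of blue ones for fibroblast, macrophage, Wnt and BMP genes, and left of them for DPP4, GPD1, ACTA2, ERBB3, JAG2 and FGF6.

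In the signalling lists, Wnt ligands bind Frizzled receptors and stabilise beta-catenin, and targets such as AXIN2 and SP5 read out that activity. Of 16 Wnt genes 12 rose and 1 fell, with a median of 1.66, and 7 rose beyond 1.5-fold. AXIN2, a feedback inhibitor, was at 16.1 and 18.5 CPM in wild type and 60.3 and 45.6 CPM in the knockout (log2 change 1.61, SE 0.25, edgeR adjusted p = 0.0023), and SP5 at 1.89 and 1.44 CPM in wild type and 10.7 and 12.9 CPM in the knockout (log2 change 2.82, SE 0.42, edgeR adjusted p = 0.0022). DKK2 and SFRP1, secreted modulators, were at 42 and 48 CPM in wild type and 252 and 339.6 CPM in the knockout (log2 change 2.72, SE 0.28, edgeR adjusted p = 4.1e-04) and at 89.7 and 111 CPM in wild type and 265 and 393 CPM in the knockout (log2 change 1.71, SE 0.21, edgeR adjusted p = 5.9e-04). NOTUM, a secreted inhibitor, fell from 5.38 and 7.51 CPM to 1.8 and 0.517 CPM (log2 change -2.47, SE 0.52, edgeR adjusted p = 0.0068). Some members were higher in the skin-rich replicate, since LGR5, LEF1, DKK1 and WIF1 were at 29.5 and 15.4, 54.2 and 19.1, 7.73 and 0.985 and 13.9 and 2.12 CPM in knockout replicates 1 and 2, and 9 of 16 genes were higher without replicate 1.

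BMP and TGF-beta genes were higher in 9 of 18 and lower in 3, with a median of 0.94. The shares, 50% and 16.7%, stood beside 21.0% and 26.2% of all genes tested. GREM1, an extracellular BMP antagonist, was at 0.391 and 0.589 CPM in wild type and 156 and 109.7 CPM in the knockout (log2 change 8.07, SE 0.43, edgeR adjusted p = 2.7e-05). BMP4, a ligand, was at 6.02 and 5.62 CPM in wild type and 27.7 and 17.6 CPM in the knockout (log2 change 1.96, SE 0.21, edgeR adjusted p = 2.3e-04). Targets rose with it, ID2 at 14.6 and 14.1 CPM in wild type and 45 and 38.6 CPM in the knockout (log2 change 1.54, SE 0.11, edgeR adjusted p = 2.6e-05) and BAMBI at 6.35 and 5.6 CPM in wild type and 22.5 and 20.8 CPM in the knockout (log2 change 1.86, SE 0.17, edgeR adjusted p = 9.7e-05). These 4 genes were high in both knockout libraries. The 3 lower calls (SKIL, TGFBI and NOG) were all lost with library size alone, beyond 1.5-fold and without knockout replicate 2, while SKIL passed without wild-type replicate 1 and TGFBI without wild-type replicate 2.

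Notch genes fell in 8 of 14 and rose in 4, with a median of -1.11. The shares, 57.1% and 28.6%, stood beside 26.2% and 21.0% of all genes tested. Among ligands, JAG2 was at 63.2 and 64.3 CPM in wild type and 14.2 and 13.6 CPM in the knockout (log2 change -2.20, SE 0.18, edgeR adjusted p = 5.8e-05) and DLL1 at 36.5 and 23.8 CPM in wild type and 6.03 and 6.84 CPM in the knockout (log2 change -2.23, SE 0.26, edgeR adjusted p = 3.8e-04). Of the receptors, NOTCH3 and NOTCH1 fell, NOTCH3 from 254 and 214 CPM to 90.3 and 105 CPM (log2 change -1.26, SE 0.12, edgeR adjusted p = 1.4e-04). The target HEYL also fell, from 183 and 142 CPM to 30.7 and 49.3 CPM (log2 change -2.02, SE 0.25, edgeR adjusted p = 8.6e-04). DLL4, a ligand of endothelial cells, rose from 14.4 and 14.4 CPM to 22.4 and 30.0 CPM (log2 change 0.86, SE 0.16, edgeR adjusted p = 0.003), and MFNG, a Notch glycosyltransferase, from 5.92 and 4.09 CPM to 13.5 and 18.4 CPM (log2 change 1.67, SE 0.25, edgeR adjusted p = 0.0012). Beyond 1.5-fold, 1 gene was higher and 7 were lower, and DLL4 did not pass (adjusted p = 0.071).

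FGF and IGF genes were lower in 8 of 20 and higher in 6 (40% and 30%, beside 26.2% and 21.0% of all genes tested). Their median was -0.11 with TMM and 0.20 with library size alone. FGF6, the ligand of skeletal muscle, was at 62.2 and 181 CPM in wild type and 0.118 and 0.10 CPM in the knockout (log2 change -10.08, SE 0.78, edgeR adjusted p = 3.0e-04), and SPRY4, an inhibitor that FGF signalling induces, at 61.7 and 66.7 CPM in wild type and 22.1 and 21.1 CPM in the knockout (log2 change -1.57, SE 0.11, edgeR adjusted p = 2.7e-05). FGF10, a mesenchymal ligand, was at 5.29 and 11.2 CPM in wild type and 47.7 and 77 CPM in the knockout (log2 change 2.92, SE 0.39, edgeR adjusted p = 0.0016). FGFR2, whose epithelial form receives FGF10, was at 1.08 and 1.59 CPM in wild type and 58.3 and 24.6 CPM in the knockout (log2 change 4.95, SE 0.60, edgeR adjusted p = 0.0016); it was higher in the skin-rich replicate, and its log2 change without that library was 4.19 (adjusted p = 7.9e-04). The number lower was 5 without knockout replicate 2, 4 without wild-type replicate 1 and 5 with library size alone.

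Limb position genes, mostly homeobox factors of the limb mesenchyme, rose in 10 of 20 and fell in 1, with a median of 1.19. The shares, 50% and 5%, stood beside 21.0% and 26.2% of all genes tested. SHOX2 was at 39.9 and 51 CPM in wild type and 81.9 and 100.1 CPM in the knockout (log2 change 1.00, SE 0.14, edgeR adjusted p = 0.001) and MEIS1 at 11.6 and 12 CPM in wild type and 33.9 and 24.3 CPM in the knockout (log2 change 1.30, SE 0.22, edgeR adjusted p = 0.0023). PITX1, a hindlimb factor, fell from 5.23 and 8.3 CPM to 3.6 and 2.32 CPM (log2 change -1.19, SE 0.27, edgeR adjusted p = 0.0098), a call lost beyond 1.5-fold. Chosen after the values were seen, TBX5, the forelimb factor, was at 3.85 and 0.648 CPM in wild type and 13.5 and 18 CPM in the knockout (log2 change 2.81, SE 0.75, edgeR adjusted p = 0.027), and TBX4, its hindlimb counterpart, at 3.91 and 0.589 CPM in wild type and 3.42 and 5.04 CPM in the knockout (adjusted p = 0.36). Wild-type replicate 2 was the lowest of the 4 libraries for both TBX5 and TBX4, and TBX5 missed the threshold without either knockout library (adjusted p = 0.052 and 0.074).

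Immediate early genes, which cells switch on within minutes of a stimulus, were higher in 8 of 15 with the stress genes, and 2 heat shock genes were lower. The shares, 53.3% and 13.3%, stood beside 21.0% and 26.2% of all genes tested. JUN was at 117 and 147 CPM in wild type and 413 and 471 CPM in the knockout (log2 change 1.74, SE 0.26, edgeR adjusted p = 0.0016), and IER2 at 13.1 and 20.1 CPM in wild type and 41.8 and 53 CPM in the knockout (log2 change 1.51, SE 0.21, edgeR adjusted p = 9.8e-04). HSPB1, a small heat shock protein abundant in muscle, fell from 246 and 232 CPM to 72.7 and 78.8 CPM (log2 change -1.66, SE 0.11, edgeR adjusted p = 1.6e-05). Without wild-type replicate 1, 4 genes were higher. EGR1, which also stands on the tendon list, was at 36.6 and 49.5 CPM in wild type and 259.6 and 257 CPM in the knockout, and its adjusted p of 0.0086 became 0.069 without that library.

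Cell cycle genes were higher in 9 of 24 with a median of 0.25, beside 0.06 for all genes. The shares higher and lower, 37.5% and 0%, stood beside 21.0% and 26.2% of all genes tested. CENPE, a mitotic motor, was at 34.6 and 35.3 CPM in wild type and 65.4 and 55.3 CPM in the knockout (log2 change 0.79, SE 0.10, edgeR adjusted p = 6.8e-04), and MCM6, a replication helicase subunit, at 123 and 123 CPM in wild type and 163 and 155 CPM in the knockout (log2 change 0.37, SE 0.09, edgeR adjusted p = 0.0088). The changes were small, and 0 genes passed beyond 1.5-fold (edgeR's TREAT test), while 15 were higher with library size alone, 4 without knockout replicate 1 and 3 without wild-type replicate 2.

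Respiratory chain genes fell in 20 of 21, with a median of -0.88, and in 17 with library size alone and 12 beyond 1.5-fold. COX5A was at 121 and 101 CPM in wild type and 39 and 37.5 CPM in the knockout (log2 change -1.53, SE 0.11, edgeR adjusted p = 3.3e-05), SDHA, of complex II, at 184 and 158 CPM in wild type and 67 and 73.9 CPM in the knockout (log2 change -1.28, SE 0.11, edgeR adjusted p = 8.5e-05), and NDUFA4 at 181 and 156 CPM in wild type and 73.6 and 70.3 CPM in the knockout (log2 change -1.23, SE 0.10, edgeR adjusted p = 5.3e-05). COX6C was the only one to rise, from 96.2 and 101 CPM to 239 and 214 CPM (log2 change 1.20, SE 0.10, edgeR adjusted p = 5.5e-05). Ribosomal protein genes were lower in 4 of 13 and higher in 0 with TMM, but lower in 0 and higher in 2 with library size alone; none was lower without knockout replicate 2, without wild-type replicate 1 or beyond 1.5-fold. The share of ribosomal protein genes lower with TMM, 30.8%, was near the 26.2% of all genes tested. Close copies of ribosomal protein genes make their estimated counts uncertain.

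**Figure D5:**
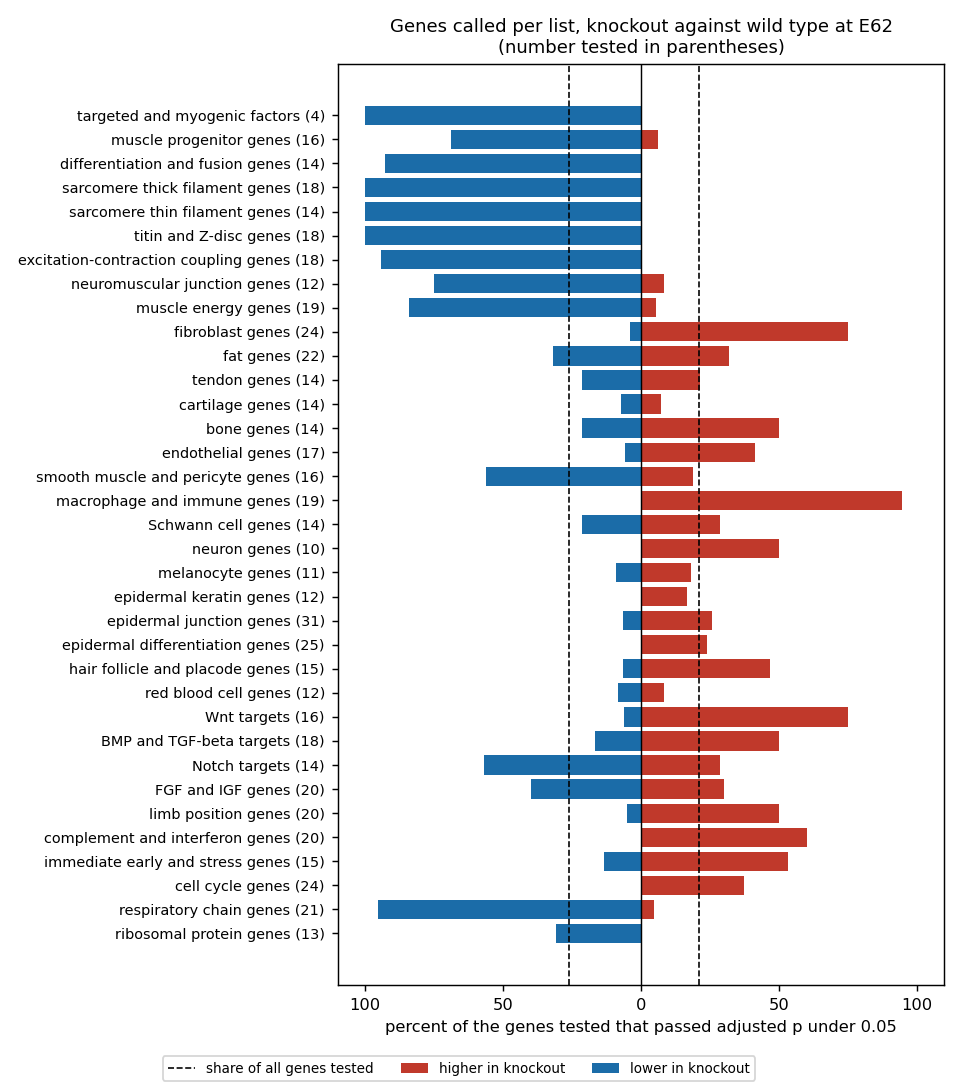
Share of the tested genes of each list that passed an adjusted p under 0.05, higher in the knockout to the right (red) and lower to the left (blue); dashed lines are the shares of all genes tested, 21.0% and 26.2%. Muscle and respiratory chain lists extend to the left, and macrophage, fibroblast, Wnt and complement lists to the right. Tendon, cartilage, red blood cell and epidermal lists stay near or under the dashed lines.

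The 12 largest rises by fitted value among genes called with at least 2 CPM were a mix of skin-linked and other genes. GLIS1, a zinc finger factor, was at 0 and 0 CPM in wild type and 4.35 and 4.74 CPM in the knockout, at least 102-fold higher (adjusted p = 1.2e-04). IRX2 and IRX1, homeobox factors, were at 0.0301 and 0 CPM in wild type and 14.4 and 9.44 CPM in the knockout and at 0.0902 and 0.147 CPM in wild type and 20.6 and 17.8 CPM in the knockout (adjusted p = 2.6e-04 and 6.1e-05). RSPO1, which enhances Wnt signalling, was at 0.0902 and 0 CPM in wild type and 10.5 and 13 CPM in the knockout, 262-fold higher (95% interval 89.4 to 1271). These genes and GREM1 were high in both knockout libraries. GRIK1, a glutamate receptor subunit, was at 0 and 0.118 CPM in wild type and 18.2 and 9.09 CPM in the knockout (log2 change 7.77, SE 0.76, edgeR adjusted p = 2.3e-04), and SNAP25, a synaptic membrane protein, at 0.0301 and 0 CPM in wild type and 6.3 and 1.79 CPM in the knockout, 281-fold higher (95% interval 50.2 to 11120.1).

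Another 5 of the 12 were well above replicate 2 in the skin-rich library. DSP, DSC1 and DSG3, which encode desmosome proteins, were 6.13-fold, 57.2-fold and 5.63-fold higher there, and SPTLC3 and THEM5, genes of lipid metabolism, 3.58-fold and 22.7-fold. DSC1 had an adjusted p of 0.049, and of 0.22 and 0.2 without wild-type replicate 1 and replicate 2. DSG3, DSP and THEM5 missed the threshold in the same way without either wild-type library (adjusted p between 0.077 and 0.17), and SPTLC3 held. The 12 largest falls by fitted value, an order that does not hold for genes given only as bounds, were CSRP3, VGLL2, ACTA1, MYOG, MYPN, ACTC1, MYF6, MYF5, MYH8, KLHL41, SMPX and MYL2, of which SMPX, a small muscle protein, was at 439 and 506 CPM in wild type and 0.0295 and 0.0167 CPM in the knockout, 20140.1-fold lower (95% interval 6891 to 97666).

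Genes of immune cells were among those higher in knockout replicate 2. The B-cell genes PAX5, CD79A and CD79B were at 2.36 and 15.3, 1.61 and 8.76 and 4.01 and 15.7 CPM in knockout replicates 1 and 2. CCL19, a chemokine of lymphoid tissue, was at 2.82 and 15.2 CPM, and the antigen presentation genes CD74 and HLA-DRA at 27 and 95.4 and 10.6 and 39.7 CPM. Wild-type values of CD74, 56.1 and 41.7 CPM, lay between those of the knockout replicates. Its log2 change was 0.32 with both knockout libraries (adjusted p = 0.66), 0.96 without replicate 1 (adjusted p = 0.0051) and -0.86 without replicate 2 (adjusted p = 0.014), so its direction depended on the library kept. FCN2, ficolin, was high in both at 3.28 and 2.97 CPM in wild type and 39.2 and 126 CPM in the knockout (log2 change 4.72, SE 0.61, edgeR adjusted p = 0.0019). The red cell sum was 1.85 times and the endothelial sum 1.54 times as high in replicate 2 as in replicate 1.

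The effect of the knockout differed between E62 and E41 for 4553 of 17020 genes (26.8%) by the interaction test, 1913 of them more positive and 2640 more negative at E62, and for 1579 beyond 1.5-fold. Skin sums were higher at E41 (above), and the wild-type names at E41 carry LHL where the other 6 libraries carry RHL; the part of either in these differences was not tested. PAX7 was already reduced at E41 (84 and 82 CPM in wild type and 1.81 and 0.391 CPM in the knockout), and its fall was larger at E62 (difference -6.94, SE 1.52, edgeR adjusted p = 0.025; interaction test over 8 libraries). Among muscle genes CALCR (log2 change -1.35 at E41 and -6.92 at E62, adjusted p = 5.8e-04) and LBX1 (-3.71 and -7.65, adjusted p = 0.0032) behaved alike. RANBP3L reversed, from 5.85 and 3.67 CPM in wild type and 0.237 and 0.282 CPM in the knockout at E41 to 0.451 and 0.471 CPM in wild type and 3.67 and 9.69 CPM in the knockout at E62 (difference 8.03, SE 0.77, edgeR adjusted p = 9.9e-04). PITX1 reversed in the opposite sense, and at E41 stood at 39.2 and 40.5 CPM in wild type and 164 and 146 CPM in the knockout (difference -3.15, SE 0.36, edgeR adjusted p = 0.002). Of the 24 cell cycle genes 14 passed the interaction test, each more positive at E62.

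Several of the largest rises at E62 were genes that wild-type limbs expressed at E41 and not at E62. IRX2 was at 3.77 and 9.42 CPM in wild type and 26 and 18.7 CPM in the knockout at E41, GRIK1 at 1.98 and 3.14 CPM in wild type and 5.36 and 5.47 CPM in the knockout and SPTLC3 at 2.75 and 4.07 CPM in wild type and 9.8 and 8.88 CPM in the knockout. In wild type at E62 these 3 genes were at or under 0.118 CPM, below all of these E41 values. In the knockout at E62, IRX2, at 14.4 and 9.44 CPM, lay within the range of its E41 values. GRIK1, at 18.2 and 9.09 CPM, lay above all of its E41 values, and SPTLC3, at 17.1 and 4.79 CPM, did so in replicate 1 only. At E41 the epithelial gene TRIM29 was likewise at 24.4 and 60.3 CPM in wild type and 82.1 and 48.6 CPM in the knockout, whereas on day 62 it was above 1 CPM in knockout replicate 1 only.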

How the data were processed

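The authors deposited 1 table of estimated counts (expected counts), a whole number for each gene and library, not normalised; per the submitters' processing notes, kallisto and DESeq2 were used, with the builds Sscrofa11.1 and susScr11 named without a role. Annotation and filters are not given in the sources used. Kits were TruSeq RNA or Stranded mRNA, per the labels' protocols, and strand of counting is not stated, so overlapping antisense genes cannot be told apart. Symbols were found for 15527 of 22516 gene identifiers (69.0%). Reads of near-identical copies are divided by estimation, so close paralogs are uncertain. No genome or sequences were used.

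Counts were rounded, genes kept by filterByExpr (minimum count 10), and 17020 genes (14082 with a symbol) fitted in edgeR 4.0.16 (R 4.3.3) with TMM factors and 1 mean per group over all 8 libraries, with 4 residual degrees of freedom and a common biological coefficient of variation of 0.204. Knockout against wild type at E62 and the interaction with E41 were tested by the two-sided quasi-likelihood F test with Benjamini-Hochberg adjusted p under 0.05. Replicates were not repeats of 1 library (chi-square over its degrees of freedom 74.4 in wild type and 68.2 in the knockout), and log CPM correlated at r = 0.984 and 0.967. CPM are TMM-scaled. Where a group had no count, folds are bounds from a floor of 3 counts over the group; with 1 to 3 counts they are ratios with exact intervals at the 95% level, covering counting error only. List medians take such genes at these values. Ratios between replicates add 0.25 CPM where they select genes.

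Samples were grouped by title. The members, the 35 gene lists and the tests were chosen with earlier results of these data known. Named genes are the targeted genes, the 12 largest rises and falls with at least 2 CPM and no overlap, up to 5 genes per list by p and 2 against its majority, cell type markers, the 12 largest ratios each way between the knockout replicates, and the 6 largest stage differences each way, 241 in all without genes not reported here; others are said to be chosen later or close a list. The steps were tested on simulated data. Alternatives were DESeq2 1.42.0, limma-voom (limma 3.58.1), RLE factors, library size alone, TMM without muscle and skin genes, no filter, 1 CPM in 2 libraries, thinned counts, E62 libraries alone, a 1.5-fold test, a replicate block and each library left out.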

Additional observations from a re-analysis of the deposited data

Results flagged for a closer look

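Groups of 2 libraries are too small for a test of single outlying samples, so what stands out here are differences of the knockout effect between day 62 and day 41, each by edgeR's interaction test over the 8 libraries, on the log2 scale. They numbered 4553 genes in all. The 6 genes of each direction named here were picked by the fitted difference. More positive at E62 were RANBP3L (difference 8.03), SPTLC3 (7.81), DSG3 (7.66), IRX2 (7.62) and GRIK1 (6.70). GLIS1 had no count in wild type at E62, and with its effect there at the bound of 3 counts the difference was at least 4.28. For IRX2, SPTLC3, DSG3 and GRIK1, wild-type libraries at E62 were near 0 while those at E41 were at 1.98 CPM or more, and DSG3 and SPTLC3 were higher in the skin-rich knockout replicate (5.63-fold and 3.58-fold over replicate 2).

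More negative at E62 were PAX7 (difference -6.94), RHCG (-6.36), LRRC38 (-6.11) and DLK2 (-6.06). SNAI3 and VGLL2 had no count in the knockout at E62, and with the same bound their differences were -6.17 and -3.19 or beyond. SNAI3 was at 9.95 and 4.09 CPM in wild type at E62 and at E41 at 0.193 and 0.531 CPM in wild type and 0.108 and 0.0651 CPM in the knockout. LRRC38 was at 14.7 and 8.95 CPM in wild type and 0.0738 and 0.0167 CPM in the knockout at E62 and at 2.03 and 0.841 CPM in wild type and 0.258 and 0.565 CPM in the knockout at E41. DLK2, a relative of the Notch modulator DLK1, was at 34.7 and 19.5 CPM in wild type and 0.915 and 0.234 CPM in the knockout at E62 and at 7.63 and 8.45 CPM in wild type and 14.3 and 8.88 CPM in the knockout at E41.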

How the results depend on the processing

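No gene called in the main test was called in the opposite direction under any of the 15 alternatives. The 8028 changed genes became 3692 for changes beyond 1.5-fold (1647 higher, 2045 lower), where the interaction count was 1579. Library size alone gave 6156 higher and 2717 lower, and a ratio of 4.34 for summed epidermal CPM of knockout replicate 1 over replicate 2. Leaving out 1 library gave 5816 to 6798 changed, 2250 to 2971 higher, 3566 to 3954 lower and 3487 to 4282 by interaction; the lone library was assumed to vary like those of other groups. The interaction could not be had from the E62 libraries alone. The deviations of same-numbered E62 libraries from their group means correlated at r = -0.0094. With 2 libraries a group, both pairs give the same r by construction, so it cannot settle whether the numbers pair the samples. The main fit did not pair them, and a fit with the replicate number as a block gave 7512 changed genes. Of 3607 log2 changes of named genes under alternatives, 3366 kept their direction and side of the threshold, 61 gained and 166 lost the call, and 14 changed sign.

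Log2 changes that changed sign had these ranges when 1 library was left out, and the cause was not tested. Without knockout replicate 1 the lowest values were those of COL2A1 (-0.84, up to 0.76), TP63 (-4.06 to 2.15), KRT8 (-0.85 to 6.22) and UPK3B (-3.26 to 4.82). Without knockout replicate 2 they were those of CD74 (-0.86 to 0.96), HLA-DRA (-0.54 to 1.36), ITIH4 (-0.041 to 1.85) and MAB21L1 (-0.90 to 1.58; -0.49 without wild-type replicate 2). Wild-type libraries moved MKX (-0.095 to 0.95) and SOX9 (-0.46 to 0.41). SOX9 was at 0.21 with library size alone, and COL2A1 at -0.030 and TP63 at -0.77 with limma-voom. Among the values of changed sign, those of TP63 without knockout replicate 1 and of CD74 without knockout replicate 2 passed the threshold.

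With 2 libraries a side, genes whose level differed between the knockout replicates had wide errors, as KRT1 (SE 3.09). Values under 0.10 CPM rest on a few counts.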

Other observations

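Further genes of the lists, chosen after their values were seen, showed clear differences between the genotypes at E62. MSTN, myostatin, the muscle growth inhibitor, was at 104 and 92.9 CPM in wild type and 1.61 and 0.284 CPM in the knockout (log2 change -6.67, SE 0.66, edgeR adjusted p = 8.2e-04). FGFR4, the FGF receptor of muscle progenitors, was at 279 and 216 CPM in wild type and 1.9 and 2.55 CPM in the knockout (log2 change -6.80, SE 0.88, edgeR adjusted p = 0.0027). HOXD10, a distal limb homeobox gene, was at 0.361 and 1.35 CPM in wild type and 6.55 and 10.4 CPM in the knockout (log2 change 3.30, SE 0.61, edgeR adjusted p = 0.0051), and TWIST2, a dermal and mesenchymal factor, at 0.842 and 3.89 CPM in wild type and 25.4 and 26.6 CPM in the knockout (log2 change 3.46, SE 0.63, edgeR adjusted p = 0.0076). For all 4 the libraries of the 2 genotypes did not overlap. IGF1, the growth factor, was at 6.05 and 5.07 CPM in wild type and 16.9 and 16.8 CPM in the knockout (log2 change 1.60, SE 0.32, edgeR adjusted p = 0.0052), close to equal in both knockout libraries.

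Among genes that differed between the knockout replicates outside skin and lymphoid tissue, MAB21L1 was at 3.84 and 12.6 CPM, VEPH1 at 3.26 and 10.8 CPM, ITIH4 at 6.74 and 20.9 CPM and SLC4A1, the red cell anion exchanger, at 3.23 and 11.3 CPM in replicates 1 and 2. The wild-type pair also differed for MAB21L1, at 11.5 and 2.74 CPM. RHCG, an ammonium transporter, was at 8.69 and 3.74 CPM in wild type and 0.236 and 0.10 CPM in the knockout (log2 change -5.17, SE 0.67, edgeR adjusted p = 6.2e-04). Of the genes called at E62, 40 had no count in either knockout library, and 874 had no symbol.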
